A study of Mus musculus with 10 samples.

Results

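Integrin subunits and laminin chains were followed in OP9 cells, a stromal line from calvaria, by RNA sequencing. Members were chosen by gene symbol, as every Itga, Itgb, Lama, Lamb and Lamc gene of the expression table, which gave 35 genes of 26888. They comprised 17 integrin alpha subunits, 8 integrin beta subunits and 10 laminin chains. Each symbol occurred once. Itga10 and Lamb4 were not analysed here, and laminin beta 1 was listed under its older symbol Lamb1-1, outside the choice by symbol, so that its values are given beside those of the members and not counted.

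All 10 libraries came from the OP9 line of (C57BL/6xC3H)F2-op/op mice, which lack functional M-CSF. The labels give its calvaria as foetal, whereas the line is otherwise described as from newborn mice. In 6 reaggregates, OP9 cells were packed together and kept for 48 h on nitrocellulose filters with 0.8 µm pores where medium meets gas. Reaggregates 2, 4 and 6 received IL-3 at a labelled dose of 200 µg/µl, and reaggregates 1, 3 and 5 did not. The other 4 libraries came from flat submersed cultures, where the label of cultures 2 and 4 names the de Bruijn laboratory and that of cultures 1 and 3 names no source. The methods name the Medvinsky and the de Bruijn group as origins of flat cultures, without saying which culture came from which. The source of the cells in the reaggregates was not labelled either. Per the study's methods, cells were detached with trypsin before reaggregation and released with collagenase and dispase before RNA extraction. Values are reads per 1000000 reads assigned to genes (RPM). Taking the commonest value above 0 in each library as 1 read, the libraries held an estimated 7.35e+06 to 9.43e+06 such reads. On this estimate 3 reads, taken as the smallest amount a library can show, corresponded to between 0.318 and 0.408 RPM. This floor covers counting error only.

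Integrins are receptors built from 1 alpha and 1 beta subunit that tie the cytoskeleton to extracellular matrix or to ligands on other cells. The alpha subunit largely sets what the receptor binds, such as collagens, laminins or proteins that carry an RGD motif. Laminins are trimers of an alpha, a beta and a gamma chain that form the sheet-like network of basement membranes, and stromal cells of blood-forming tissue both secrete laminins and hold them through integrins.

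The libraries did not fall into uniform groups. Over all genes, which do not count as independent replicates, r (Pearson, log2 values) was between 0.994 and 0.995 for reaggregates 1 and 2, 3 and 4, and 5 and 6, against 0.961 to 0.980 for other pairs of reaggregates. Flat cultures that shared a label correlated at 0.965 and 0.984, and those with different labels at 0.913 to 0.931. Between reaggregates and flat cultures r was 0.878 to 0.966, with flat culture 3 at 0.952 to 0.966. Of the 31 members above 0.5 RPM in any library, 23 differed more between the means of the consecutive reaggregate pairs than within any pair, on the log2 scale, as did 74.0% of all such genes. The labels do not state that replicates came from separate cultures, so the p-values measure only the spread between these samples, which may be technical.

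Reaggregates were compared with flat cultures to ask how the transcriptome of OP9 cells differed between the packed and the flat state. Of 10 laminin chains, 4 rose and 1 fell, and of 25 integrin subunits 3 rose and 2 fell. A gene counted as risen or fallen when it changed at least 2-fold with an adjusted p of at most 0.05 in limma, on the log2(RPM + 0.5) scale, which understates the change of low genes. This made 7 members up, where 7.32% of the 16933 genes tested were up, and 3 members down, where 6.53% of all genes were down. Only 31 members passed the filter of more than 0.5 RPM in at least 1 library. Itgax, Lama1, Lama3 and Lamc3 did not, and stayed under the floor in each library. The median log2 fold change was 1.01 over the 7 laminin chains tested and 0.13 over the 24 integrin subunits tested, against 0.035 over all genes tested. In 2 members every reaggregate lay above every flat culture, which held for 7.8% of all genes, and in 3 members every reaggregate lay below, which held for 11.4% of all genes. In bulk RNA, fewer cells of a kind and less RNA per cell cannot be told apart.

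**Figure D1:**
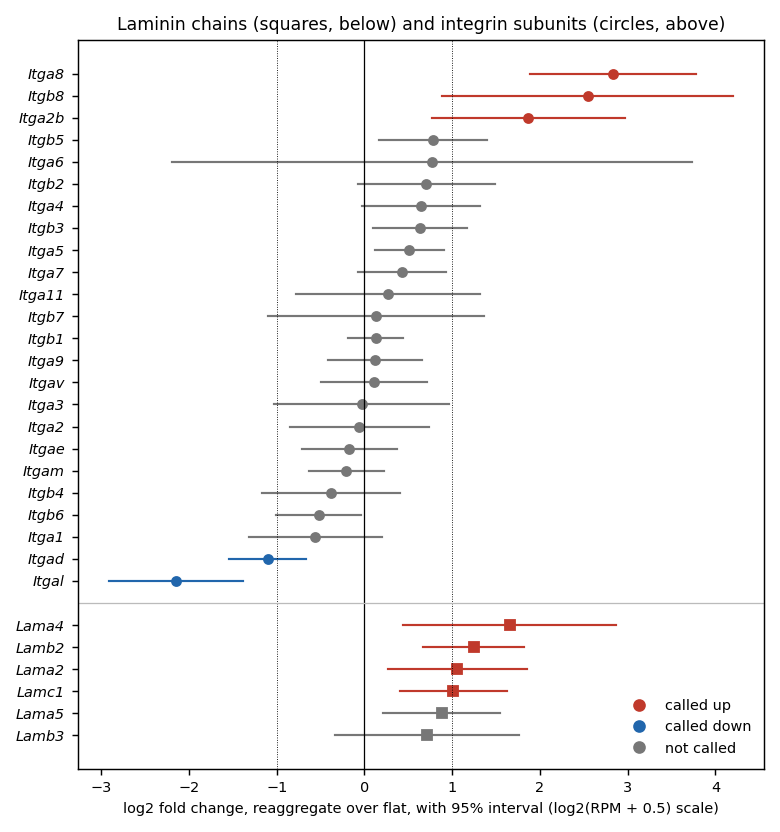
Log2 fold change of reaggregates (n = 6) over flat cultures (n = 4) for 30 of the 31 members tested, with 95% intervals from limma. Points are integrin subunits (circles) and laminin chains (squares), coloured by whether they were called, and dotted lines mark a fold change of 2. Itga8 lies farthest to the right at 2.83 and Itgal farthest to the left at -2.15.

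Among laminin alpha chains, Lama4, the chain typical of vessels and of mesenchymal stroma, gave 92.0, 150 and 190 RPM as the lowest, median and highest reaggregate. It gave 87.0, 22.9, 133 and 13.0 RPM over flat cultures 1 to 4. The difference was 1.66 (SE 0.554) on the log2 scale, with a limma adjusted p of 0.0428. Flat culture 3 lay within the range of the reaggregates and flat culture 1 just under it, whereas both flat cultures of the de Bruijn label lay far below. Lama2, the alpha chain of muscle basement membrane, gave 1.17, 2.06 and 3.54 RPM as lowest, median and highest reaggregate and 0.230, 1.31, 1.08 and 0.608 RPM over flat cultures 1 to 4. Its log2 fold change was 1.06 (SE 0.360, limma adjusted p 0.0452), and the groups overlapped. Lama5, a widely expressed alpha chain and the one with the highest level per kilobase of exon over all libraries, gave 115, 124 and 146 RPM in reaggregates, against 32.1, 139, 75.4 and 65.7 RPM in flat cultures. It was not called, with a log2 fold change of 0.88 and a limma adjusted p of 0.0487, because the change was under 2-fold. Flat culture 2 exceeded 5 of the 6 reaggregates. Summed over the 5 alpha chains, the level was 23.2 ± 3.22 RPM per kilobase (SD, n = 6) in reaggregates and 12.2 ± 4.76 (SD, n = 4) in flat cultures. Lama4 made up 51.0% of that sum in reaggregates and 65.5% in flat cultures without a source label, while Lama5 made up 84.9% in flat cultures of the de Bruijn label.

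Lamb2, the beta chain that replaces beta 1 in many mature basement membranes, was the beta chain with the highest level per kilobase among members. It gave 240, 263 and 293 RPM as lowest, median and highest reaggregate and 97.7, 104, 223 and 67.4 RPM in flat cultures. Each reaggregate exceeded each flat culture, of which flat culture 3 came closest. The log2 fold change was 1.25 (SE 0.264, limma adjusted p 0.00611). Lamb1-1, counted outside the members, gave 142, 211 and 318 RPM in reaggregates, against 75.5, 319, 194 and 164 RPM in flat cultures, and was not called at a log2 fold change of 0.34 (limma adjusted p 0.491). Lamb3, an epithelial chain, stayed between 0.850 and 7.27 RPM over all libraries and was not called.

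Lamc1, the gamma chain of most laminins, gave 235, 256 and 370 RPM as lowest, median and highest reaggregate and 119, 168, 241 and 74.6 RPM in flat cultures. It rose by 1.01 (SE 0.281) on the log2 scale with a limma adjusted p of 0.0205, and flat culture 3 lay within the reaggregates. It lies on chromosome 1 of NCBIM37 at 155066052 to 155179916, on the minus strand.

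Among alpha subunits that bind RGD ligands, Itga8, a receptor chain for nephronectin and fibronectin found in mesenchyme and smooth muscle, changed most. It gave 12.7, 14.6, 7.26, 7.92, 4.99 and 5.03 RPM over reaggregates 1 to 6, against 0.921, 0.358, 2.26 and 0.121 RPM over flat cultures 1 to 4. The lowest reaggregate stood above the highest flat culture, and flat culture 4 was under the floor. The log2 fold change was 2.83 (SE 0.435, limma adjusted p 0.00118). Itga8 lies on chromosome 2 of NCBIM37 at 12028259 to 12223547, and 5.07% of its exon length overlaps a noncoding gene on the opposite strand. Whether counting used strand is not given in the sources used here, so reads of the pair cannot be told apart. Itga2b, the platelet alpha subunit CD41, gave 9.14, 19.1 and 23.0 RPM as lowest, median and highest reaggregate and 6.33, 0.955, 11.8 and 3.28 RPM in flat cultures. It rose by 1.87 (SE 0.505) on the log2 scale with a limma adjusted p of 0.0185, and flat culture 3 lay above reaggregates 5 and 6. Summed megakaryocyte and platelet markers, 5 genes led by Gp1bb, gave 0.637 to 1.67 RPM in reaggregates and 0.606 to 1.15 RPM in flat cultures. Gp9 was under the floor in each library. Of the 2 markers tested, Gp1bb and Pf4, neither was called. Pf4 gave at most 0.651 RPM in reaggregates and 0.115 RPM in flat cultures. It passed the filter only through the reaggregates, so that nothing is read from its test. The part of these markers in the values of Itga2b was not tested. Itga5, the fibronectin receptor chain and the most abundant of this class per kilobase, gave 205, 261 and 295 RPM in reaggregates, against 138, 205, 224 and 149 RPM in flat cultures. It was not called, with a log2 fold change of 0.51 and a limma adjusted p of 0.0522. Itgav, the fourth member of the class, ranged from 106 to 387 RPM and was not called.

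Of the laminin-binding alpha subunits none was called in this comparison. Itga6, which pairs with beta 1 or beta 4, gave 46.1, 50.8, 9.04, 10.1, 81.6 and 86.5 RPM over reaggregates 1 to 6, against 234, 1.55, 144 and 1.94 RPM over flat cultures 1 to 4. The reaggregates lay between the flat cultures of either label, with reaggregates 3 and 4 lowest among them. Its log2 fold change was 0.77, with a 95% interval from -2.20 to 3.74 and a limma adjusted p of 0.681. It was 3.95 against only those of the de Bruijn label (limma adjusted p 0.00402, called), and -2.41 against only those without a source label (limma adjusted p 0.0778, not called). Itga3 gave 37.5, 40.7, 23.3, 21.1, 56.9 and 50.3 RPM in reaggregates, against 68.7, 21.8, 76.0 and 15.8 RPM in flat cultures, again with reaggregates 3 and 4 lowest of the reaggregates. Itga7 stayed between 0.921 and 2.43 RPM.

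The remaining alpha subunits were not called, apart from a pair of leukocyte subunits. Among collagen receptors Itga11, a fibroblast subunit, was highest per kilobase and gave 21.8, 61.6 and 98.8 RPM in reaggregates, against 19.1, 76.6, 54.7 and 48.1 RPM in flat cultures, of which culture 1 alone lay outside the reaggregates. Itga9, which binds tenascin and VCAM1, gave 119, 172 and 246 RPM in reaggregates, against 126, 215, 122 and 188 RPM in flat cultures, all of which lay within the range of the reaggregates. Itga1, Itga2 and Itga4 had means of at most 8.84 RPM in either group.

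Itgal, the alpha chain of LFA-1 on leukocytes, gave 0.513, 0, 0, 0.128, 0.217 and 0.425 RPM over reaggregates 1 to 6, against 0.921, 3.94, 2.63 and 3.89 RPM over flat cultures 1 to 4. It lies on chromosome 7 of NCBIM37 at 134439774 to 134478651. The groups did not overlap, and 4 of the 6 reaggregates were under the floor. It fell by 2.15 (SE 0.349) on the log2 scale with a limma adjusted p of 0.00157. Among reaggregates, only reaggregate 1 exceeded the filter of 0.5 RPM, by a narrow margin. Itgad, the CD11d chain, gave at most 0.136 RPM in reaggregates, under the floor in each, and 0.914, 0.835, 0.359 and 0.964 RPM in flat cultures. It is counted among the 3 members down, but passed the filter only through the flat cultures, so that nothing is read from its test. Its close relatives Itgam and Itgax lie beside it on chromosome 7, and reads shared between such copies were divided in the table, so that its values are uncertain. Itgae and Itgam were not called, and neither exceeded 1.09 RPM. Of the haematopoietic markers, 9 genes were listed, Ptprc and Cd52 were at 0 in every library, and Lyz2 was the most abundant at a mean of 19.6 RPM. Their summed level was 20.9, 22.7, 8.59, 9.71, 24.2 and 26.1 RPM over reaggregates 1 to 6, against 50.6, 8.95, 31.5 and 11.1 RPM over flat cultures 1 to 4. Their part in the values of Itgal, Itgad, Itgb7 and Itga6 was not tested.

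Itgb8 was the only beta subunit called. It pairs with alpha v to activate latent TGF-beta, and gave 11.5, 14.7, 2.40, 2.30, 12.4 and 13.4 RPM over reaggregates 1 to 6, against 2.99, 0, 3.59 and 0 RPM over flat cultures 1 to 4. Reaggregates 3 and 4 lay under flat cultures 1 and 3, so the groups overlapped. The log2 fold change was 2.54 (SE 0.758, limma adjusted p 0.0278). Itgb1, the shared partner of most alpha subunits, was the most abundant member per kilobase, at a level of 193 ± 20.5 RPM per kilobase (SD, n = 6) in reaggregates and 176 ± 13.0 (SD, n = 4) in flat cultures. It gave 678, 804 and 874 RPM as lowest, median and highest reaggregate and 747, 765, 722 and 645 RPM in flat cultures. Its log2 fold change was 0.13 with a 95% interval from -0.18 to 0.44. Itgb3 and Itgb5, partners of alpha v, had log2 fold changes of 0.63 and 0.78 with limma adjusted p of 0.0681 and 0.0566. Itgb2, Itgb4, Itgb6 and Itgb7 had means of at most 5.21 RPM in either group.

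**Figure D2:**
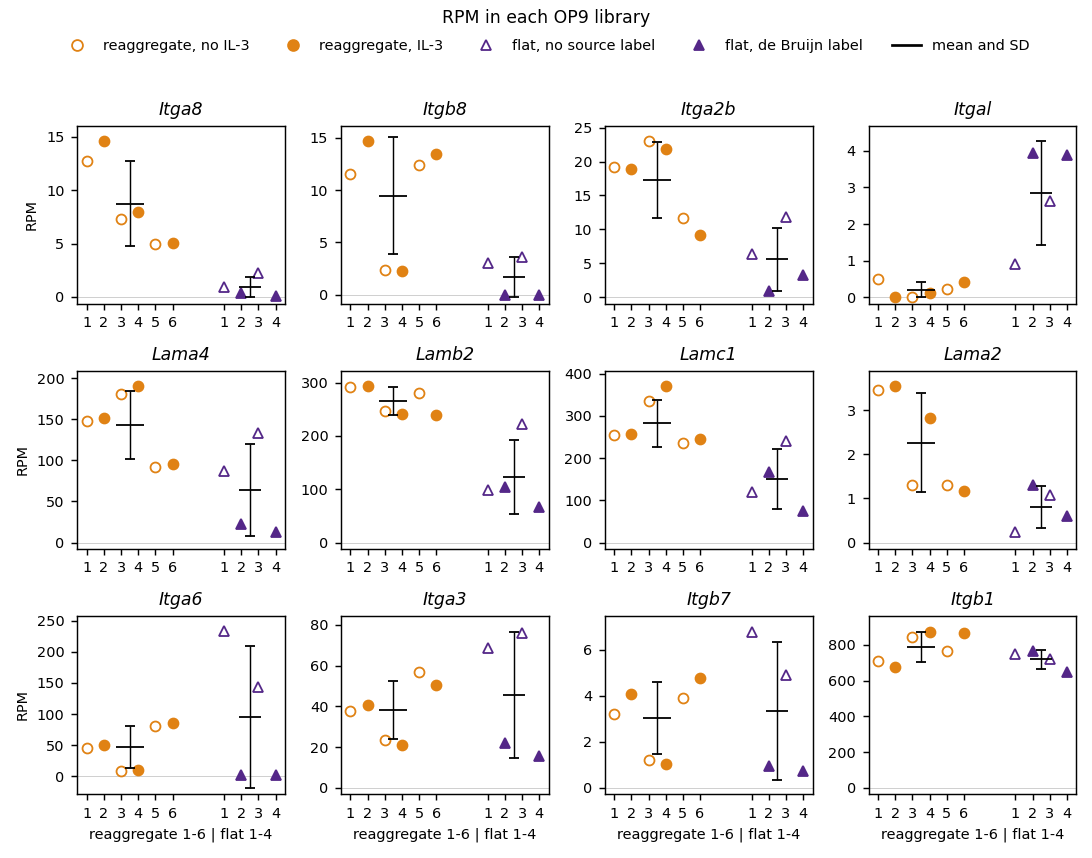
RPM of 12 members in reaggregates 1 to 6 (circles, filled with IL-3) and flat cultures 1 to 4 (triangles, filled with the de Bruijn label), with mean and SD of each group; each panel has its own linear axis. For Itga6, Itga3, Itgb7 and Lama4 the filled triangles lie far below the open ones, as for Itga6 at 1.55 and 1.94 RPM against 234 and 144 RPM.

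The members called differed with the flat cultures used. With only flat cultures of the de Bruijn label on the other side, 8 members were up and 3 down, where 15.5% and 10.6% of all genes were. Itgb8 passed the filter there only through the reaggregates and Itgad only through the flat cultures, so that nothing is read from their calls. Itga6 and Itgb3, both up there, were not called against all flat cultures. Against flat cultures without a source label alone, 4 were up and 2 down, where 3.97% and 6.49% of all genes were. Of these 4, Itga8 was also up against all flat cultures, whereas Itgb2, Itgb5 and Lama5 were not called there. The other 6 members up against all flat cultures missed the call. Lama2 did so at a log2 fold change of 1.26 (limma adjusted p 0.0829), and also against the de Bruijn label at 0.86 (limma adjusted p 0.12), and Lamb2 at 0.84 (limma adjusted p 0.0514). The log2 fold change of Lama4 fell to 0.35 (limma adjusted p 0.443), that of Lama2 did not fall. Itga8 was up and Itgal was down against either pair, although Itga8 passed the filter through the reaggregates alone where the de Bruijn label was used. Among reaggregates, Itgal exceeded the filter only in reaggregate 1, at 0.513 RPM. Lama4 had a log2 fold change of 2.96 against the de Bruijn label and 0.35 against the unlabelled pair, and Itgb8, at 0 in both cultures of the former, had 1.09 against the latter (limma adjusted p 0.305). Itga2b had 2.85 against the de Bruijn label and 0.89 against the unlabelled pair (limma adjusted p 0.127). For Lamc1 these values were 1.31 and 0.72 (limma adjusted p 0.0927 for the latter). The difference between these values was not tested apart from the comparison of the flat cultures themselves. With consecutive reaggregates averaged, 1 member was up (1.92% of all genes), which was Itga8, and 1 was down (2.59% of all genes), which was Itgal. Itgal then passed the filter only through the flat cultures, so that nothing is read from that call. The log2 fold changes of the other 6 members stayed near those with all libraries and missed the call by their adjusted p, at 1.08 for Lama2, 1.25 for Lamb2, 1.87 for Itga2b, 2.55 for Itgb8, 1.66 for Lama4 and 1.01 for Lamc1. Without flat culture 4, only Itga8 and Lamb2 were up and Itgal and Itgad down, where 772 of 16855 genes were up and 815 down. Itgad again passed the filter only through the flat cultures, so that nothing is read from its call.

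Among the flat cultures, the laminin-binding subunits Itga6 and Itga3, together with Itgb7 and Lama4, were lower in cells of the de Bruijn label, whereas Itga7, Itgb1 and Itgb4 were not called. Of 30 members tested, 0 were higher, where 2.89% of 16115 genes were, and 5 were lower, where 6.96% were. Itga6 fell by 6.36 (SE 0.379) on the log2 scale with a limma adjusted p of 3.89e-05, from a mean of 189 RPM without a source label to 1.75 RPM with the de Bruijn label. Lama4 fell by 2.60 (adjusted p 0.00321), Itga3 by 1.93 (adjusted p 0.0071) and Itgb7, a leukocyte subunit, by 2.23 (adjusted p 0.00884) in the same limma fit. Itgb7 gave 6.79, 0.954, 4.91 and 0.729 RPM over flat cultures 1 to 4. Itgb8, counted among the 5, passed the filter only through the cultures without a source label, and nothing is read from its test. Listed at 0 in both cultures of the de Bruijn label, it was at least 9.14-fold lower there, taking 3 reads per library as the floor. Summed over the laminin-binding alpha subunits, the level was 3.75 ± 0.689 RPM per kilobase with the de Bruijn label and 33.9 ± 6.08 without (SD, n = 2 each), and 12.4 ± 6.21 in reaggregates (SD, n = 6). The median of all genes in this comparison was -0.18 and moved to -0.01 with median-ratio scaling and 0.05 with quantile normalization. All 5 members stayed called under both, Itgb8 among them, from which nothing is read. Itga2 was called higher under both and Itga2b lower with median-ratio scaling. Among the flat cultures Itga2 exceeded 0.5 RPM only with the de Bruijn label, so that nothing is read from its call. Itga3 and Itgb7 missed the call whichever flat culture was left out, and Itga6, Lama4 and Itgb8 did so without flat culture 1 or 3. Each of these fits assumed that a lone library varied like the other pair, so that no conclusion is drawn from them.

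Marker lists of other cell states also differed in summed level, with members of 1 list not always moving alike. The 8 stromal markers, led by Col1a2, summed to between 20306 and 26961 RPM in reaggregates, against between 8166 and 19156 RPM in flat cultures, with Thy1 under the floor in each library. Of the 7 tested, 5 rose, while Vim, not called, was lower in every reaggregate at a log2 fold change of -0.54. Col3a1, among the 5, was also called lower in flat cultures of the de Bruijn label, at -4.02 (limma adjusted p 0.000829). The 6 smooth muscle markers, led by Acta2, summed to 247, 2700, 540 and 2783 RPM over flat cultures 1 to 4 and to between 187 and 779 RPM in reaggregates, where Smtn rose by 1.37 and Cnn1, at most 3.40 RPM, fell by 1.14 on the log2 scale. Acta2 and Tagln, most of the sum in each flat culture, were not called at -1.91 and -3.07 (limma adjusted p 0.0848 and 0.0533), and were called higher in flat cultures of the de Bruijn label by 3.14 and 4.74. The 6 adipocyte markers, led by Lpl, summed to 370, 1385, 528 and 1457 RPM in flat cultures and to between 255 and 691 RPM in reaggregates. Lpl itself was not called (-0.20), whereas Fabp4, Pparg and Cebpa fell by 2.37, 1.67 and 1.36 on the log2 scale. These 3 were also called higher in flat cultures of the de Bruijn label, by 3.84, 2.66 and 1.65, and Fabp4 gave 31.3, 435, 47.2 and 711 RPM over flat cultures 1 to 4 against 19.1 to 44.4 RPM in reaggregates. Plin1 was called higher there too, but passed the filter only through those cultures, so that nothing is read from its call. No haematopoietic or skeletal muscle marker was called between reaggregates and flat cultures. Cd53 missed only the 2-fold threshold, at -0.99 (limma adjusted p 0.0329), and Lyz2 was lower in flat cultures of the de Bruijn label by a log2 difference of -2.18 (limma adjusted p 0.00885). The 3 skeletal muscle markers listed, led by Des, summed to between 7.12 and 18.4 RPM in reaggregates and between 19.6 and 36.9 RPM in flat cultures. Acta1, in this list, was called higher in flat cultures of the de Bruijn label by 2.80 (limma adjusted p 0.00534). The 7 endothelial markers reached at most 1.64 RPM and the 5 epithelial markers at most 0.807 RPM. The part of these differences in the values of Itga6, Lama4 and the other members was not tested.

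IL-3 was compared within the reaggregates. Of 28 members tested, 0 were called by limma (0.0% of 16292 genes), and 0 members had an unadjusted p of at most 0.05, which 20 of all genes had. That fit took no account of the likeness of consecutive reaggregates, each with 1 library of either kind. With these pairs as a block, 0 members were called, while an unadjusted p no larger than 0.05 was reached by 692 of all genes and by 2 members, Itga9 (limma adjusted p 0.813) and Itgav (limma adjusted p 0.99969). Within the pairs, 7 of 28 members were higher with IL-3 in 3 of 3, where 12.9% of all genes were, and 3 members in 0 of 3, where 9.8% of all genes were. Without the block, the most positive log2 difference was that of Itga4 at 0.41, with a 95% interval from -0.66 to 1.48, and the most negative that of Itgae at -0.35, with an interval from -0.96 to 0.25.

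Genes that work with the members were followed in 4 lists, to be read against the 7.32% of all genes up and 6.53% down. Of 12 basement membrane partners tested, 5 rose and 0 fell, with a median log2 fold change of 1.09. Nid2, which links laminin to type IV collagen, gave 149 to 403 RPM in reaggregates, against 21.0 to 86.3 RPM in flat cultures, a log2 difference of 2.60 (limma adjusted p 0.00107). Agrn, a laminin-binding proteoglycan, had 2.56 (adjusted p 0.00274), and the type IV collagen chains Col4a6 and Col4a5 had 2.40 and 1.76. Of 19 integrin ligands other than laminins, 5 rose and 1 fell, with a median of 0.58. One of the 5, Vtn, was at 0 in every flat culture and passed the filter only through the reaggregates, so that nothing is read from it. Postn, a matrix ligand of alpha v integrins, rose most, by 6.69 on the log2 scale (limma adjusted p 0.000768), followed by Edil3 at 3.70, Fbln5 at 1.26 and Vcam1, the ligand of alpha 4 and alpha 9 integrins, at 1.12, whereas Cyr61 fell by 1.51 (adjusted p 0.00411). Of 18 genes listed as other laminin receptors, proteins of their complexes or tetraspanins, 3 rose and 2 fell, with a median of 0.12. Dag1, the core of dystroglycan, had a log2 fold change of 1.19 and Sdc2 of 2.41. Cd151, a tetraspanin partner of laminin-binding integrins, fell by 1.08, and Rpsa, by its symbol a ribosomal protein gene, fell by 1.31. Of 32 rows of activators, adaptors and kinases tested, in which Tns1 has 2 rows, 1 rose (Tln2, 1.54) and 1 fell (Lims2, -1.74), and the median was 0.08. Of the genes named here, Col4a6, Col4a5, Postn, Edil3, Sdc2 and Tln2 were also called lower, and Lims2 higher, in flat cultures of the de Bruijn label than in those without a source label. Lims2 gave 4.23, 37.9, 4.87 and 28.0 RPM over flat cultures 1 to 4, so that cultures 1 and 3 lay within the 1.62 to 6.24 RPM of the reaggregates. Tln2 gave 41.6, 13.5, 85.7 and 15.5 RPM, of which culture 3 lay within the 62.5 to 118 RPM of the reaggregates.

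Promoter sequences are shown for 3 members that rose, Itga8 and Lamb2 because their groups did not overlap and Lama2 because it held a match. RefSeq entries on GRCm38.p6 matched 21 of the 35 members in 24 windows, 5 of them called, and the 250 bases before the start were searched on both strands. AP-1 (TGANTCA) matched in 1 of 24 windows against 6.75% of 32851 promoters, TEAD (GGAATG) in 2 against 12.6%, the CArG box in 2 against 1.47%, the Sp1 GC box (GGGCGG) in 8 against 32.7%, and CRE (TGACGTCA) in 0 against 1.55%. A match is a description of letters, and none is read as a site. Capitals mark AP-1, TEAD or CArG box letters. The windows are chr2:12301945-12302194 on the minus strand for Itga8, chr9:108479612-108479861 on the plus strand for Lamb2 and chr10:27616943-27617192 on the minus strand for Lama2.
Itga8: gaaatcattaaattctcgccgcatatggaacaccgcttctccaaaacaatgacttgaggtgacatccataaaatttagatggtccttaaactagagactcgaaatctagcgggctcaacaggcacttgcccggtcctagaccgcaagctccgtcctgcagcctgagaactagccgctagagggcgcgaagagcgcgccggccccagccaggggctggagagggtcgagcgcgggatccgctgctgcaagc
Lamb2: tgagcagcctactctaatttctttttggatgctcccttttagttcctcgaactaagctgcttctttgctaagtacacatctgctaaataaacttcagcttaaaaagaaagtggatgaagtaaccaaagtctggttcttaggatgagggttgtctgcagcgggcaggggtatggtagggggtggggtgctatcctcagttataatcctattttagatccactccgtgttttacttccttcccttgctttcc
Lama2: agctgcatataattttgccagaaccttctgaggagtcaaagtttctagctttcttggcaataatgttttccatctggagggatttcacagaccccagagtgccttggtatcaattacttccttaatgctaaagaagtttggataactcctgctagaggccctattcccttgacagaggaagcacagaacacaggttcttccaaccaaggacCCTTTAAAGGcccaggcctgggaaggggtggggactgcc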

How the data were processed

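RNA of OP9 cells was sequenced as 10 libraries with 50-base single-end reads. The authors aligned reads with TopHat 1.2.0 and Bowtie to NCBIM37 (mm9). GeneProf then counted them per Ensembl gene, dividing reads of several positions, and RPM values were deposited. Deposited columns with the authors' own log2 fold change and adjusted p were not used. Between 34.8% and 48.8% of values up to 10 RPM per library were whole multiples of 1 read, to within 2% and less than 0.1 read. The values are rounded, and rounding alone can break such multiples, so this share does not show whether counts could be recovered. As the values were RPM, no test on counts was run.

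The comparisons used limma 3.58.1 in R 4.3.3 on log2 values after adding 0.5 RPM. Genes entered when any library exceeded 0.5 RPM. The fits had a mean-variance trend and Benjamini-Hochberg adjustment over all genes, and were tested on simulated independent libraries. That test had neither the likeness of consecutive reaggregates nor the split of flat cultures by label, and does not cover them. Members called, members called between flat cultures and the most abundant member per kilobase of each class are given in full, apart from 1 called laminin chain, which is counted but not reported here. Related genes are named where called with a group mean of at least 5 RPM, at most 4 per direction. Members and lists were chosen with earlier results of these data known. Exon lengths and positions came from an NCBIM37 annotation of a later Ensembl release. Of the 5 promoter motifs, CRE was added after the counts of the other 4 had been seen. Figures used matplotlib 3.10.9 in Python 3.11.15.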

Additional observations from a re-analysis of the deposited data

Results flagged for a closer look

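In 3 of 68 groups of values examined, a library lay apart from the rest of its group, where chance gives about 3.40. Itga1 was 17.7 RPM in flat culture 3, against 6.80 RPM in the next highest flat culture. Lama1 was 0.12 RPM in flat culture 3 and 0 in the other flat cultures, under the floor of 0.36 RPM. Lamc3 was 0.109 RPM in reaggregate 3, under the floor of 0.327 RPM.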

How the results depend on the processing

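Over 26 settings, Itga8 was called up in 24 of 24 alternatives and Itgal down in 23 of 23. This is no sign of stability where they passed the filter through 1 group alone, as Itga8 did with the de Bruijn label only, and Itgal with pairs averaged, with IL-3 only or without reaggregate 1. Lama4 missed the call in 12 and Lama2 in 14 of 24. The 10 members called between reaggregates and flat cultures became 2 with consecutive reaggregates averaged, 2 with reaggregates with IL-3 only, 2 with those without IL-3 only, 5 with no filter, 6 with flat cultures without a source label only and 6 without reaggregates 3 and 4, a setting chosen after seeing the data. Leaving out 1 library gave 4 to 11, the 4 without flat culture 4. Where libraries were averaged or split by IL-3, fits with fewer samples, log2 fold changes moved little for Lamb2 at 1.25, 1.21 and 1.29 and Itga2b at 1.87, 1.80 and 1.94, when averaged, with IL-3 only and without IL-3 only. The cause was not tested. The 5 called between flat cultures became 8 with all libraries in 3 groups, 3 with a filter of 1 RPM in 4 libraries and 2 with no filter, and leaving out 1 library gave 0 to 4. For IL-3 the count was 0 in each alternative.

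Itga11 turned to -0.18 with the de Bruijn label only, -0.13 without flat culture 1 and -0.16 without reaggregates 3 and 4. Itga6 turned to -2.41 with unlabelled flat cultures only, -0.33 without flat culture 2 and -0.25 without flat culture 4. Itga9 turned to -0.23 with the de Bruijn label only, -0.0085 with IL-3 only, -0.0011 without flat culture 3 and -0.013 without reaggregates 3 and 4. Leaving out 1 library gave at most 0.53 for Itga11, 1.95 for Itga6 and 0.27 for Itga9. None of the 3 was called with all libraries.

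Over all genes, 1239 up and 1106 down became 319 and 430 with consecutive reaggregates averaged, 281 and 368 with IL-3 only, 354 and 486 without IL-3 only, 2581 and 1776 with the de Bruijn label only, 661 and 1080 with unlabelled flat cultures only, 2122 and 1522 without flat culture 3, and 772 and 815 without flat culture 4. With no filter they became 888 and 923 of 26888 genes, and without reaggregates 3 and 4 they became 846 and 855 of 16745. Between flat cultures, 466 up and 1121 down became 745 and 1167 with median-ratio scaling, 737 and 903 with quantile normalization, 726 and 1622 in 3 groups, 250 and 616 with the stricter filter, 56 and 110 with no filter, 181 and 359 without flat culture 2, 194 and 409 without flat culture 4, and 0 and 0 without flat culture 1 or 3. For IL-3, consecutive reaggregates as a block gave 0 up and 3 down.

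With replicate numbers 1 to 4 as a replicate block, 9 members were called, and 1891 genes were up and 1160 down. Same-numbered libraries did not deviate together (r -0.041, -0.213, 0.072 and 0.155), and 1 of 4 reaggregates correlated best with its own number, so the samples share only a number.

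Depth limits the values of Itgad, Itgax, Itgb6, Lama1, Lama3 and Lamc3, which lie near or under 3 reads in most libraries.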
